A study of Mus musculus with 24 samples.

Results

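The cell cycle genes described here are 40 mouse genes chosen by symbol, out of 35191 genes in a table of RNA-seq read counts from the pituitary. They comprise 9 S phase genes (Mcm2 to Mcm7, Pcna, Rrm1 and Rrm2), 17 genes of mitosis and the G2/M transition, 10 genes of G1 and the G1/S transition, and 4 inhibitors of cyclin-dependent kinases. All 40 passed the filter on low counts and were among the 21927 genes tested. The study compared male and female mice with a conditional knockout of Egr1 (Egr1cKO), a zinc finger transcription factor, with controls. Its 24 libraries of polyA RNA fall into 8 groups of 3, which are 4 genotypes in each sex. Complete wild type mice (wt) carried neither the conditional allele nor Cre, and Cre control mice (wt) carried Cre. Egr1cKO control mice carried the conditional allele (FF) without Cre, and Egr1cKO mice carried FF with Cre. Both Cre-positive genotypes thus share Cre recombinase, and FF is read here as 2 conditional Egr1 alleles. The cells in which Cre acts, the deleted part of Egr1, and the strain and age of the mice are not stated in the labels. Nothing beyond a bracketed number in each title says that the 3 libraries of a group came from separate animals, so the p-values measure the spread between these libraries.

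Cells entering the cycle first make D-type cyclins, which activate Cdk4 and Cdk6 and free E2F factors to switch on the genes of DNA replication. Genes of mitosis are switched on later. They are repressed by the DREAM complex and activated by B-Myb complexes at short promoter elements called CHR, often with CCAAT boxes bound by NF-Y. The adult pituitary renews its hormone cells slowly, and the D-type cyclins and the Cdk inhibitors p27 (Cdkn1b), p57 (Cdkn1c) and p18 (Cdkn2c) are known for restraining or allowing proliferation there.

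Promoter sequences were searched for these elements because the S phase and mitosis members differed in how they varied between libraries. Sequences came from RefSeq on the GRCm38.p6 build, and 32 of the 40 members had an entry. Aurkb, Ccna2, Ccnd1, Ccnd2, Ccne2, Cdkn1c, Mcm4 and Tpx2 had none. The 6 stretches below lie upstream of the annotated start and read 5′ to 3′ on the gene's strand. Each ends at the base before the start, except that of Mki67, which ends 90 bases before it. Capitals mark every CHR (TTTGAA or TTTAAA, the latter its own reverse complement), CCAAT box (CCAAT, or ATTGG on the other strand) and E2F motif (TTTCCCGC, TTTCGCGC, TTTGCCGC or TTTGGCGC), on either strand. The 4 mitosis genes show the CHR and CCAAT pairing, and Mcm6 and Rrm1 show S phase promoters without a CHR in the stretch.
Plk1, chr7:122159335-122159434, + strand: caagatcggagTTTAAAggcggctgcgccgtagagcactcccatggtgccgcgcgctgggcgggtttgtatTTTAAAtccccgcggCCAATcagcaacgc
Cdk1, chr10:69352913-69353052, - strand: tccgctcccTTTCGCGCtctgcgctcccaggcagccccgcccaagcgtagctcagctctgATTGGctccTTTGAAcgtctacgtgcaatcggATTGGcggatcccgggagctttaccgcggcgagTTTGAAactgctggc
Mki67, chr7:135716469-135716574, - strand: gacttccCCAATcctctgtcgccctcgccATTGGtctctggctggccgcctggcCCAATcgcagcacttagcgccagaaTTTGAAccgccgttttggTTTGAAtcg
Ccnb2, chr9:70421555-70421724, - strand: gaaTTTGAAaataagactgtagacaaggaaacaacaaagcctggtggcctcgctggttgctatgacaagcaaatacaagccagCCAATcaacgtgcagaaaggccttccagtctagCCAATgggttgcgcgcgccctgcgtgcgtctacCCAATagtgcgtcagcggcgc
Mcm6, chr1:128359706-128359820, - strand: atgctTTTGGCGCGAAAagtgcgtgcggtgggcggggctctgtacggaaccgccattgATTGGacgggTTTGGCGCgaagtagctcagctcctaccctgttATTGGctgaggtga
Rrm1, chr7:102441595-102441694, + strand: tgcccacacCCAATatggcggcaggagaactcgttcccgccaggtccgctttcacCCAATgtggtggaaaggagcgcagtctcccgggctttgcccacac
Plk1 encodes a kinase of mitotic entry, Cdk1 the kinase that drives mitosis and Ccnb2 one of its cyclins, while Mki67 encodes the proliferation antigen Ki-67. Mcm6 is a subunit of the replicative helicase and Rrm1 the large subunit of ribonucleotide reductase. In the Mcm6 stretch the first run of capitals is an E2F motif on one strand that overlaps another on the opposite strand.

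Over the 250 bases before each start, the 32 members had 36 promoters, since a gene can have more than one. A CHR was present in 11 of 14 promoters of mitosis genes (78.6%), 2 of 9 of S phase genes (22.2%), and 25.2% of all 32851 promoters. A CCAAT box was present in 13 of 14 mitosis promoters (92.9%), 9 of 9 S phase promoters and 33.8% of all promoters. An E2F motif was present in 3 of 9 S phase promoters (33.3%), 1 of 14 mitosis promoters and 1.86% of all. The site read by EGR proteins, searched as GCGTGGGCG or GCGGGGGCG on both strands, was present in 2 of 36 member promoters (5.56%), those of Ccnb1 and Cdkn2c, and in 3.06% of all. A match describes the letters in this window and is no evidence of binding.

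Total counts ran from 15486069 to 26255343 per library. The 7 markers of pituitary hormone cells were detected in every library, and markers of stem, endothelial, immune, fibroblast, posterior lobe and red cells were also present. The libraries therefore hold RNA of more than the endocrine cells named in the labels. In such bulk samples, fewer cells of a type and less RNA per cell cannot be told apart. Egr1 itself was at 51.1, 22.7 and 42.7 CPM (reads scaled to library size) in the male Egr1cKO controls and at 58.3, 238 and 105 CPM in the male libraries labelled Egr1cKO. In females it was at 34.2, 11 and 9.79 CPM in the controls and at 162, 7.55 and 26.6 CPM in those labelled Egr1cKO. Its counts were thus not lower with the label, and since the deleted part is not known, whole-gene counts do not check it. Groups are named below as labelled.

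A pair of libraries stood apart in the mitosis genes. Wild type female replicate 1 had the highest value of all 24 libraries for 9 of the 17 mitosis genes and the lowest S phase sum of its group, and Egr1cKO control female replicate 2 was highest of 24 for 4 of the 17. The first of these libraries was also lowest for 2 of the 17, Ccnb1 and Bub1, of which it had no count. Mitochondrial transcripts took 10.1% of the counts in the first and 6.87% in the second, against 2.08% to 4.80% in the 12 male libraries. The share was 8.73% to 10.4% in Egr1cKO females and 5.52% to 6.69% in Cre control females. Genes detected at equal depth numbered 18609 and 19856 in the 2 libraries, and 21366 to 25655 in males. Values without one or the other are given beside several results. Where a fit below includes the mitochondrial share, its slope is set by spread within groups. The share spread most in wild type females (SD 4.42%, against 0.524% to 1.76% in the other groups), so replicate 1 weighs heavily in such fits. How far their results rest on that library was not tested.

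Compared per kilobase of exon, the mitosis genes had the lowest median level of the 4 roles and the inhibitors the highest. Values are CPM, the counts divided by library size after scaling for library composition. Cdk4, the kinase partner of D-type cyclins, had the highest mean level over the 24 libraries, at 63.8 CPM per kb, followed by Cdkn1b at 30.8 and Ccnd2 at 22.7. Pcna, the sliding clamp of DNA polymerases, followed at 16.7 CPM per kb and Cdkn1c at 11.4. The median member of the mitosis group was at 0.548 CPM per kb, with a range of 0.156 (Bub1 and Cenpf) to 1.94 (Bub1b). The S phase median was 2.69 CPM per kb, the level of Mcm2, the G1 median was 1.91, and the median of the inhibitors was 8.31. Cdk4 and Ccnd2 thus stood far above the median of the G1 genes. Low levels came with wide spread. The within-group coefficient of variation had a median of 47.9% over mitosis genes, 20.5% over S phase genes, 21.2% over G1 genes and 17.1% over inhibitors. Median counts of mitosis genes were 12 to 181 per library, and Rrm2, Ccnb1 and Bub1 had no count in 3 libraries each.

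**Figure D1:**
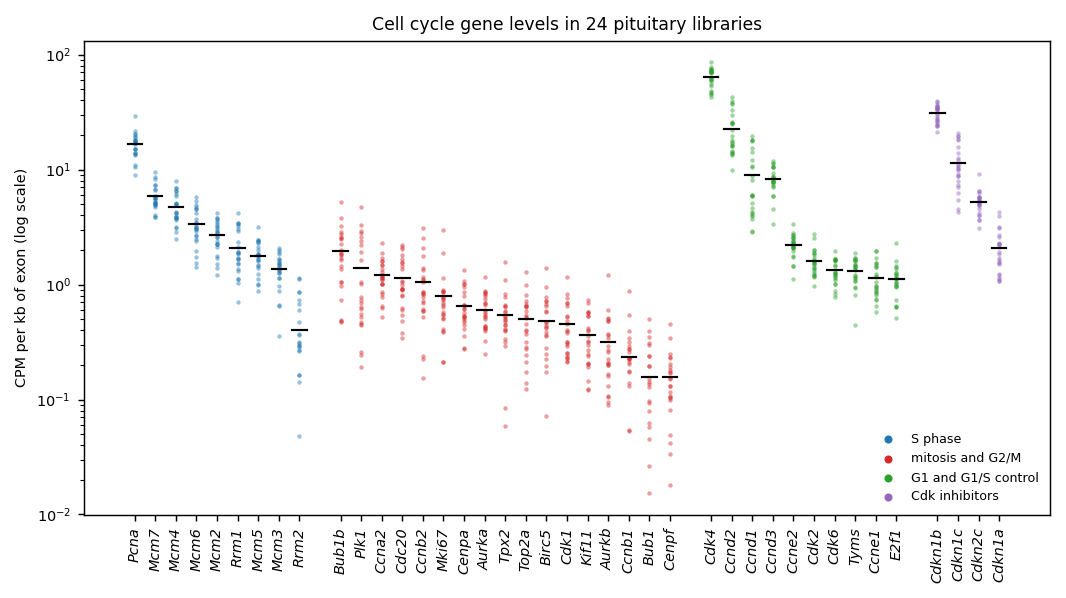
Level of each member in CPM per kb of exon, on a log axis, with 1 dot per library coloured by role and the mean over 24 libraries as a black bar. Cdk4 lies highest at 63.8 and the mitosis genes lie lowest, and 10 values of 0 are not drawn.

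In males, Cre-positive libraries had higher S phase gene levels than Cre-negative ones in both pairs of groups, though no single member passed the test across all genes. Summed over the 9 S phase genes, the level was 124 to 145 CPM in wild type males and 185 to 220 CPM in Cre control males. It was 140 to 143 CPM in male Egr1cKO controls and 158 to 223 CPM in Egr1cKO males. Neither pair of groups overlapped. The sums in females were 94.9, 190 and 200 CPM in wild type, 139 to 168 in Cre control, 112 to 117 in Egr1cKO control and 107 to 139 in Egr1cKO libraries, and both pairs overlapped.

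**Figure D2:**
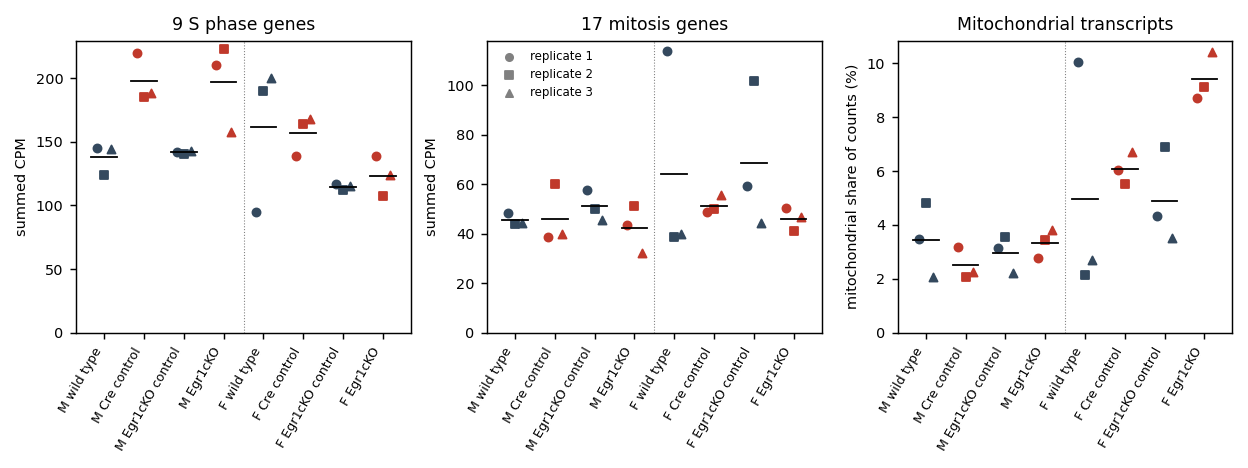
Summed CPM of the 9 S phase genes and of the 17 mitosis genes, and the mitochondrial share of counts in percent, per library (red, Cre-positive; dark, Cre-negative; bar, mean of 3; males left of the dotted line). S phase sums of Cre-positive males lie above those of their controls, and wild type female replicate 1, at 114 CPM, is the highest in the mitosis panel.

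Rrm1 had the smallest p of the S phase genes in both male comparisons. It was at 20.3, 12.2 and 21 CPM in wild type males and at 37.8, 37.5 and 33.4 CPM in Cre control males. It was at 17, 23.5 and 20.7 CPM in male Egr1cKO controls and at 36.9, 46.4 and 25.7 CPM in Egr1cKO males. Every Cre-positive male library exceeded every library of its control group. The log2 difference was 1.02 (SE 0.347) for Cre in wild type males, with an edgeR adjusted p of 0.278. It was 0.83 (SE 0.345) for Egr1cKO males, with an edgeR adjusted p of 0.667. Female Rrm1 was at 7.73, 32.2 and 35.4 CPM in wild type and 18.4, 15.1 and 18.9 CPM in Cre control, and at 11.3, 16.7 and 12.2 CPM in Egr1cKO control and 21.3, 18.3 and 14.4 CPM in Egr1cKO libraries. In both female pairs the groups overlapped.

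The helicase subunits Mcm2 to Mcm7 showed the same order of male groups for most members. Mcm6 was at 15, 11.6 and 13.7 CPM in wild type males and 21.2, 22.8 and 21.1 CPM in Cre control males, and at 14.3, 19.4 and 14.2 CPM in male controls and 26.8, 25.1 and 16 CPM in Egr1cKO males. The first pair did not overlap and the second did. Female Mcm6 was at 7.25, 16.5 and 22 CPM in wild type, 12.4, 14.9 and 17.5 CPM in Cre control, 9.24, 6.61 and 11.1 CPM in Egr1cKO control and 14.6, 12.5 and 8.04 CPM in Egr1cKO libraries. Pcna was at 43.6, 43.4 and 36.2 CPM in wild type males, 70.9, 36 and 40.6 CPM in Cre control males, 46.5, 36.1 and 33.7 CPM in male controls and 49.3, 52.3 and 48.8 CPM in Egr1cKO males. Its Egr1cKO males lay above their controls, while its wild type and Cre control males overlapped. Pcna in females was at 21.7, 41.9 and 40 CPM in wild type, 42.5, 42.2 and 46.5 CPM in Cre control, 26.1, 33.7 and 33 CPM in Egr1cKO control and 31.9, 25.4 and 41.3 CPM in Egr1cKO libraries.

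In the comparison of Cre control with wild type males, 9 of 9 S phase genes had a positive log2 difference, with a median of 0.54 against 0.01 over all genes tested. Mcm2, Mcm4, Mcm5, Mcm6 and Rrm1, 5 of 9 (55.6%), were higher with no overlap of libraries. Over all members 6 of 40 were (15%), the other being Aurkb, where 11.1% of all genes were. None of the 40 members passed edgeR's test at an adjusted p of 0.05, where 0.233% of all genes did. By edgeR 6 of 40 had an unadjusted p under 0.05 (15%, against 10.8% of all genes), and DESeq2 called 0. Here and below, DESeq2 counts are given without the share of all genes it called, so they are not read as results about the members. The members with the smallest p after Rrm1 were Plk1 (log2 difference -1.90, SE 0.791, edgeR adjusted p 0.392) and Mcm6 (0.69, SE 0.308, adjusted p 0.422). Markers of stem cells summed to 273 to 351 CPM in wild type and 330 to 496 CPM in Cre control males, with 7 of 7 markers detected in every library. Leukocyte markers summed to 89.4 to 104 and 101 to 128 CPM. Hormone cell markers summed to 244000 to 366000 CPM in wild type and 95600 to 146000 CPM in Cre control males, without overlap, and prolactin (Prl) was called lower among them. Posterior lobe markers summed to 101 to 170 and 166 to 301 CPM. No stem cell, leukocyte or posterior lobe marker passed the test in that comparison, and the part of these cells in the S phase difference was not tested.

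For Egr1cKO against control males, 8 of 9 S phase genes had a positive difference, with a median of 0.46 against 0.03 over all genes, and 0 of 40 members were called by edgeR (0.041% of all genes). By edgeR 1 member had an unadjusted p under 0.05 (2.5%, against 6.57% of all genes), and DESeq2 called 0. Mcm2, Pcna and Rrm1 were higher without overlap. They are 3 of 9 S phase genes (33.3%) and 3 of 40 members (7.5%, against 10.8% of all genes), so the share over all members was not above that background. After Rrm1 the smallest p belonged to Mcm2 (0.52, SE 0.278, edgeR adjusted p 0.807) and Mcm5 (0.61, SE 0.332, adjusted p 0.822). Egr1cKO male replicate 3 had the lowest value of its group for 9 of 9 S phase genes. Without it the differences were positive for 9 of 9, with a median of 0.60. Stem cell markers summed to 306 to 349 CPM in the controls and 412 to 468 CPM in Egr1cKO males, and leukocyte markers to 87.8 to 116 and 121 to 129 CPM. Posterior lobe markers summed to 83.6 to 213 and 237 to 290 CPM, and melanotrope and corticotrope markers to 7510 to 31500 and 39400 to 112000 CPM. These 4 lists did not overlap between the groups, while hormone cell markers (201000 to 426000 and 157000 to 244000 CPM) did, and the part of these cells was again not tested.

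In the fit without covariates, the female Cre-positive groups did not repeat the male S phase pattern. In Cre control against wild type females, 3 of 9 S phase genes had a positive difference (median -0.05, all genes -0.04), and in Egr1cKO against control females 6 of 9 did (median 0.09, all genes -0.05). Without wild type female replicate 1, 1 of 9 was positive in the first (median -0.17), and without Egr1cKO control female replicate 2, 5 of 9 were in the second (median 0.07). The second depended on covariates. With the mitochondrial share in the fit 8 of 9 were positive (median 0.40, all genes 0.08), where Egr1cKO males had a median of 0.49. That fit called 3 S phase and 2 G1 genes higher and 1 mitosis gene lower in Egr1cKO females, and 0 S phase genes in Egr1cKO males. The share of all genes it called is not given, so these calls are not read as a result about the members. With the number of genes detected 7 of 9 were positive (median 0.31, all genes 0), and 0 S phase genes were called. In the first, 5 of 9 were positive under either covariate, with medians of 0 and 0.05 (all genes 0.10 and 0.06). The difference between the sexes in the Cre effect, averaged over both Egr1 alleles, was negative (lower in females) for 9 of 9 S phase genes. Its median was -0.54, against -0.08 over all genes. No member passed edgeR's test of that difference (2.06% of all genes did), 8 had an unadjusted p under 0.05 (20%, against 21.9% of all genes), and DESeq2 called 2. The smallest p were those of Mcm4 (-0.86, SE 0.272, edgeR adjusted p 0.0781), Ccnd1 (-1.65, SE 0.51, 0.0797) and Rrm1 (-0.98, SE 0.345, 0.107). Leaving out wild type female replicate 1, 7 members were called (19.6% of all genes), with Ccnd1 at -1.87, Rrm1 at -1.19, Ccnd2 at -1.14 and Mcm4 at -1.01, and with Plk1 at 2.15, Cdkn1c at 1.22 and Cdk4 at 0.59. When the fit included the mitochondrial share, 3 of 9 S phase genes had a positive sex difference in the Cre effect, and 0 members were called.

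**Figure D3:**
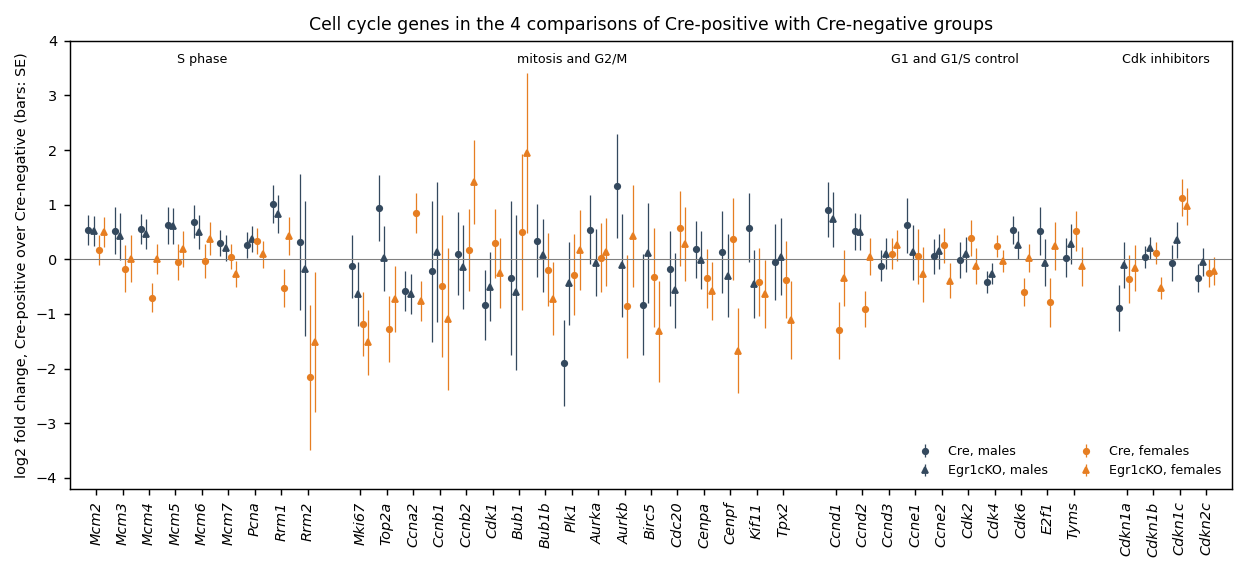
Log2 difference with its SE for each member in the 4 comparisons of Cre-positive with Cre-negative groups (navy, males; orange, females; circle, Cre control against wild type; triangle, Egr1cKO against its control). In males the S phase genes lie above 0 except Rrm2 for Egr1cKO, and the mitosis genes scatter to both sides with wide errors.

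Among the G1 genes, the D-type cyclins Ccnd1 and Ccnd2 were lower in females. Ccnd1 was at 41.5, 18.6 and 57.3 CPM in wild type males, 49.2, 85.7 and 86.1 CPM in Cre control males, 23.9, 50.7 and 38.3 CPM in male Egr1cKO controls and 93, 67.1 and 27.7 CPM in Egr1cKO males. Female libraries had it at 17.5, 72.6 and 83.1 CPM in wild type, 13.5, 28.3 and 28.2 CPM in Cre control, 18.9, 21.8 and 27.8 CPM in Egr1cKO control and 20.2, 13.8 and 19.6 CPM in Egr1cKO libraries. The male and female Cre-positive groups did not overlap, and wild type female replicates 2 and 3 lay above every wild type male. Averaged over genotype, Ccnd1 was lower in females by a log2 difference of -0.90 (SE 0.255, edgeR adjusted p 0.0164). Within the Egr1cKO groups the difference was -1.80 (SE 0.523, edgeR adjusted p 0.0309). When the fit included the mitochondrial share, these Ccnd1 differences were -0.05 (edgeR adjusted p 0.991) and -0.12 (0.963), and with the number of genes detected they were -0.23 and -0.25, so both calls were lost under either covariate. Ccnd1 (chr7:144929931-144939925, GRCm38) shares 1100 bases of exon with LTO1 on an unstranded count, and LTO1 had a sex difference of -0.22 with an edgeR adjusted p of 0.138.

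Ccnd2 was at 240, 159 and 233 CPM in wild type males, 240, 354 and 309 CPM in Cre control males, 162, 246 and 208 CPM in male Egr1cKO controls and 404, 280 and 185 CPM in Egr1cKO males. In females it was at 92.9, 349 and 372 CPM in wild type, 129, 150 and 154 CPM in Cre control, 132, 135 and 152 CPM in Egr1cKO control and 127, 137 and 171 CPM in Egr1cKO libraries. Females lay below males in 3 of the 4 genotypes without overlap, and wild type females spread from below to above the wild type males. Averaged over genotype the difference was -0.56 (SE 0.167, edgeR adjusted p 0.019). Ccnd2 lies at chr6:127125162-127152193. Ccnd3, the third D-type cyclin, ranged from 65.9 to 105 CPM in males (median 80.0) and 29.5 to 93.1 CPM in females (median 66.4), a difference of -0.40 (SE 0.142, adjusted p 0.0445 by edgeR). Cdk4 was at 140 to 256 CPM in males (median 193) and 153 to 279 CPM in females (median 231), higher in females by 0.29 (SE 0.0993, adjusted p 0.0396 by edgeR). Both ranges overlapped. The calls of Ccnd2, Ccnd3 and Cdk4 were lost, and their signs turned, when the fit included the mitochondrial share, at 0.08, 0.12 and -0.01. With the number of genes detected they were also lost, at -0.14, -0.10 and 0.04. Ccnd3 shares 361 bases of exon with Bysl, and Cdk4 shares 641 with Tspan31.

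Of the 4 Cdk inhibitors, Cdkn1c (p57) was higher in Cre-positive females than in their controls, and it passed the test for the averaged Cre effect. The other inhibitors did not pass the test in any of the 13 comparisons. Cdkn1c was at 28.6, 8.72 and 12.7 CPM in wild type females and 32, 40.1 and 36.7 CPM in Cre control females. It was at 20.6, 22.3 and 18.6 CPM in female Egr1cKO controls and 42.3, 37.6 and 40.3 CPM in Egr1cKO females. Each Cre-positive female library lay above every library of its control group. In males Cdkn1c was at 20.1, 21.9 and 9.26 CPM in wild type, 17.9, 16.4 and 14.4 CPM in Cre control, 15.1, 24.7 and 11.2 CPM in Egr1cKO control and 18, 21.2 and 25.8 CPM in Egr1cKO libraries. Both male pairs overlapped.

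The Cre effect on Cdkn1c averaged over sex and Egr1 allele was 0.59 on the log2 scale (SE 0.166, edgeR adjusted p 0.0282). It was the single call among 40 members (2.5%) in that comparison, in which 6.89% of all genes passed, and DESeq2 called 3 members. Of the members, 6 had an unadjusted p under 0.05 by edgeR (15%, against 21.4% of all genes). After Cdkn1c the smallest p were those of Mcm2 (0.43, SE 0.139, edgeR adjusted p 0.0575) and Mki67. Of the S phase genes 8 of 9 were positive (median 0.26, all genes -0.03), and 4 of 9 had an unadjusted p under 0.05. The S phase median was 0.33 with the mitochondrial share in the fit and 0.27 with genes detected (all genes 0.06 and 0.01). The fit with the mitochondrial share called 3 S phase genes, 2 G1 genes and 1 inhibitor higher and 1 mitosis gene lower. With genes detected, 3 S phase genes and 1 inhibitor were called higher and 1 mitosis gene lower. The share of all genes called in these 2 fits is not given, so the counts are not read as results about the members. Without wild type female replicate 1, Cdkn1c (0.75) and Mcm2 (0.35) were called (8.12% of all genes). Leaving out single libraries kept the value between 0.52 and 0.75 and the call in 18 of 24 cases. It was lost without any one of wild type male replicate 3, Cre control male replicate 1, Egr1cKO control male replicates 1 and 3, Egr1cKO male replicate 3 and Cre control female replicate 2, with an adjusted p of at most 0.0587. Within females, the difference was 1.13 (SE 0.335, edgeR adjusted p 0.0873) for Cre control against wild type and 0.97 (SE 0.333, adjusted p 0.114) for Egr1cKO against control. Without wild type female replicate 1 the first was 1.76 (SE 0.306, edgeR adjusted p 0.000237). The sex difference in the Cre effect was 0.91 (SE 0.332) with an edgeR adjusted p of 0.117, and 1.22 (adjusted p 0.00163) without that library. Averaged over genotype, Cdkn1c was higher in females by 0.57 (SE 0.166, edgeR adjusted p 0.0162). This sex difference was -0.09 (edgeR adjusted p 0.885) with the mitochondrial share in the fit and 0.08 (adjusted p 0.891) with the number of genes detected, whereas the averaged Cre effect kept its call under both, at 0.40 and 0.56. Cdkn1c lies at chr7:143458339-143461050 on the minus strand, and the gene overlapping it, Gm44732, had at most 0.299 CPM. Posterior lobe markers were higher with Cre for 5 of 6 genes in the same averaged comparison and in females for 6 of 6 in the sex comparison, and stem cell markers were higher with Cre for 5 of 7. Their part in the Cdkn1c difference was not tested.

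**Figure D4:**
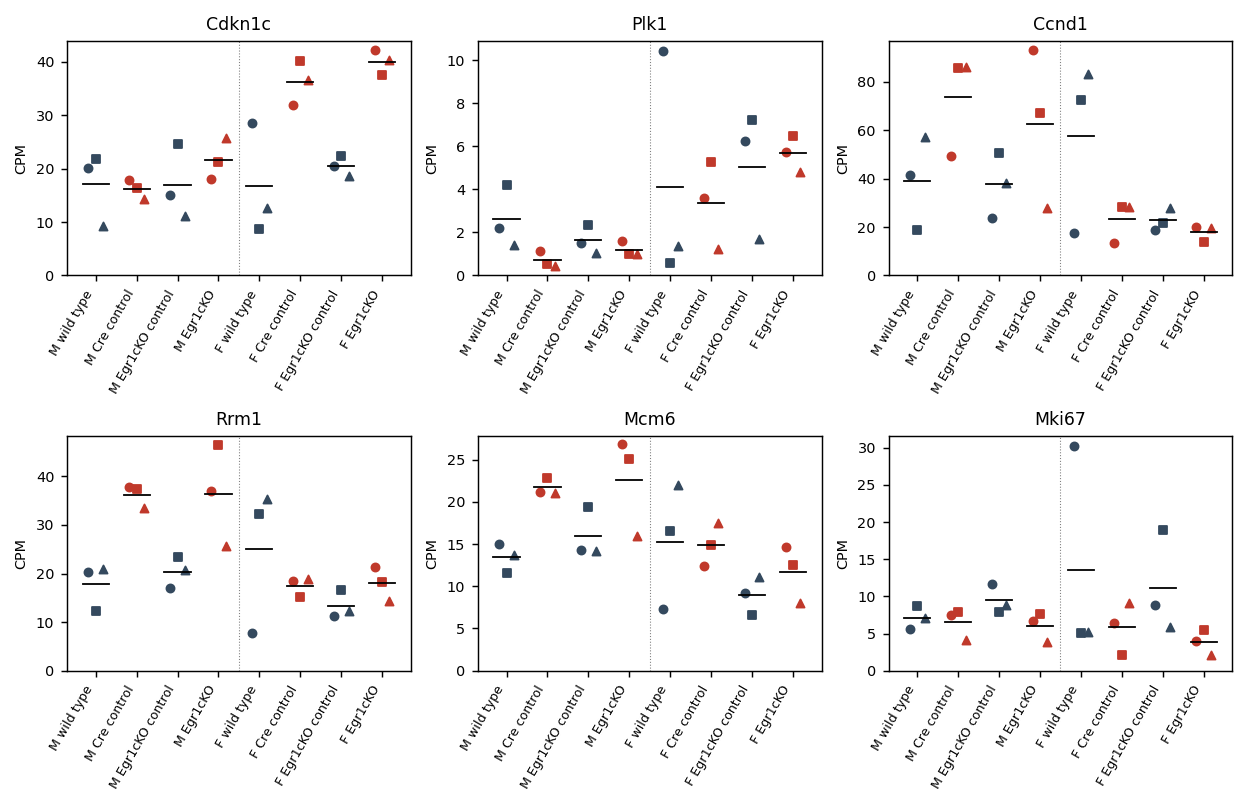
CPM of 6 members per library (red, Cre-positive; dark, Cre-negative; circle, square and triangle, replicates 1 to 3; bar, mean of 3; males left of the dotted line). Cre-positive females lie above their controls for Cdkn1c, Cre control males above wild type males for Rrm1 and Mcm6, and wild type female replicate 1 is highest for Plk1 and Mki67.

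Cdkn1a (p21) had group means (with SD over 3 libraries) of 10.1 ± 4.67 CPM in wild type males, 5.46 ± 2.21 in Cre control males, 9.12 ± 1.75 in male Egr1cKO controls and 8.47 ± 5.23 in Egr1cKO males. The female means in the same order were 5.94 ± 0.787, 4.62 ± 1.22, 7.87 ± 3.48 and 7.06 ± 1.85 CPM. Cdkn1b (p27) had male means of 143 ± 19.9, 147 ± 31.9, 127 ± 5.49 and 147 ± 24.1 CPM, and means of 133 ± 34.5 and 144 ± 30.1 CPM in wild type and Cre control females. It was at 154, 180 and 162 CPM in female Egr1cKO controls and 127, 108 and 109 CPM in Egr1cKO females. These female libraries did not overlap (log2 difference -0.53, SE 0.203, edgeR adjusted p 0.155). Cdkn2c (p18) had male means of 14.4 ± 1.11, 11.3 ± 2.96, 13.7 ± 3.66 and 13.3 ± 1.01 CPM, and female means of 19.0 ± 4.91, 16 ± 1.53, 13.2 ± 2.99 and 11.3 ± 1.70 CPM. Over the 13 comparisons the smallest adjusted p of these 3 inhibitors was that of Cdkn1b in Egr1cKO females.

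In the fit without covariates, the mitosis genes showed no difference with Cre or the Egr1cKO label that passed the test, and their spread was wide. Summed over the 17 genes, the level was 44.1 to 48.2 CPM in wild type males, 38.6 to 60 in Cre control males, 45.5 to 57.8 in male Egr1cKO controls and 32.2 to 51.4 in Egr1cKO males. In females the sum was 38.6, 40.1 and 114 CPM in wild type, with replicate 1 the highest, and 48.8 to 55.6 CPM in Cre control. It was 44.2, 59.5 and 102 CPM in Egr1cKO control, with replicate 2 the highest, and 41 to 50.5 CPM in Egr1cKO libraries. All 4 pairs of Cre-positive and Cre-negative groups overlapped.

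Mki67 was at 5.56, 8.66 and 7.05 CPM in wild type males, 7.46, 7.93 and 4.12 in Cre control, 11.6, 7.92 and 8.84 in Egr1cKO control and 6.69, 7.63 and 3.9 CPM in Egr1cKO males. In females it was at 30.2, 5.09 and 5.22 CPM in wild type, 6.39, 2.15 and 9.14 in Cre control, 8.78, 18.9 and 5.86 in Egr1cKO control and 4.02, 5.48 and 2.15 CPM in Egr1cKO libraries. The 2 libraries that stood apart held the 2 highest values, and Egr1cKO libraries lay below their controls in both sexes without overlap. The Egr1cKO difference was -1.52 (SE 0.596, edgeR adjusted p 0.165) in females and -0.63 (SE 0.582, adjusted p 0.951) in males. Without Egr1cKO control female replicate 2 the female value was -0.92 (SE 0.616, adjusted p 0.51 by edgeR). The averaged Cre effect on Mki67 was -0.87 (SE 0.293, edgeR adjusted p 0.0745). It was -0.52 (SE 0.225, edgeR adjusted p 0.159) without wild type female replicate 1 and -0.72 (SE 0.286, adjusted p 0.161) without Egr1cKO control female replicate 2. Over the 17 mitosis genes, the median difference in Egr1cKO females was -0.64 with that library and -0.19 without it, against -0.05 and -0.04 over all genes. When the fit included the mitochondrial share, the Mki67 difference in Egr1cKO females was -2.72 (edgeR adjusted p 0.000622) and its averaged Cre effect -1.09 (adjusted p 0.000591). Top2a, the DNA topoisomerase of dividing cells, had male means of 3.01 ± 1.54, 5.77 ± 3.20, 4.87 ± 0.893 and 4.94 ± 2.37 CPM and female means of 7.31 ± 3.81, 2.99 ± 2.45, 4.50 ± 2.52 and 2.69 ± 1.36 CPM, in the order wild type, Cre control, Egr1cKO control and Egr1cKO. Cdk1 had male means of 2.76 ± 1.15, 1.53 ± 0.477, 2.31 ± 1.13 and 1.63 ± 0.230 CPM and female means of 2.68 ± 2.62, 3.25 ± 0.557, 1.97 ± 1.05 and 1.64 ± 0.832 CPM. Neither gene passed the test in any of the 13 comparisons.

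Plk1 was the one mitosis gene called in a comparison, and it was higher in females. It was at 2.22, 4.22 and 1.4 CPM in wild type males, 1.15, 0.536 and 0.424 in Cre control, 1.51, 2.33 and 1.04 in Egr1cKO control and 1.6, 0.988 and 0.997 CPM in Egr1cKO males. Female libraries had it at 10.4, 0.565 and 1.35 CPM in wild type, 3.59, 5.25 and 1.23 in Cre control, 6.22, 7.23 and 1.71 in Egr1cKO control and 5.73, 6.49 and 4.82 CPM in Egr1cKO libraries. The sexes did not overlap in Cre control and Egr1cKO mice and overlapped in the other genotypes. Averaged over genotype the log2 difference was 1.69 (SE 0.385, edgeR adjusted p 0.00313), and it was 1.17 (SE 0.316, adjusted p 0.00832) without wild type female replicate 1. It was 0.12 (edgeR adjusted p 0.966) when the fit included the mitochondrial share, and 0.26 (adjusted p 0.809) with the number of genes detected. Plk1 lies at chr7:122159439-122169873, and the gene that shares 156 bases with it, Gm44985, had at most 0.84 CPM.

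For Cre control against wild type females, 0 of 40 members were called by edgeR (1.21% of all genes), 7 had an unadjusted p under 0.05 (17.5%, against 16.8% of all genes), and DESeq2 called Cdkn1c. Besides Cdkn1c, the smallest p were those of Ccnd2 (-0.91, SE 0.336, edgeR adjusted p 0.171) and Mcm4 (-0.70, SE 0.273, adjusted p 0.19). When wild type female replicate 1 was left out, edgeR called 6 members (15.5% of all genes). Cdkn1c and Cdk4 were higher, at 1.76 and 0.54, and Ccnd1, Ccnd2, Mcm4 and Rrm1 lower, at -1.73, -1.32, -1.0 and -0.96. Their share of 6 in 40 was near the background. For Egr1cKO against control females, 0 of 40 were called by edgeR (2.21% of all genes), 5 had an unadjusted p under 0.05 (12.5%, against 19.3%), and DESeq2 called 0. The smallest p were those of Cdkn1c, Cdkn1b and Mki67, given above.

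The test of whether the Egr1cKO comparison differed from the Cre control comparison, averaged over sex, called 0 of 40 members and 0% of all genes by edgeR. By edgeR 1 member had an unadjusted p under 0.05 (2.5%, against 5.13% of all genes), and DESeq2 called 0. Leaving out wild type female replicate 1 also gave 0 calls of members and 0% of all genes. The smallest p were those of Ccna2, the S phase and mitotic cyclin (-0.84, SE 0.368, edgeR adjusted p 0.931), Cenpf (-1.23, SE 0.757, 0.933) and Ccnd2 (0.47, SE 0.334, 0.94). Egr1cKO controls against wild type, which compares the conditional allele without Cre, also called 0 members and 0% of all genes by edgeR. There 3 members had an unadjusted p under 0.05 (7.5%, against 7.17% of all genes), and DESeq2 called 0. The bracketed numbers of libraries with the conditional allele form a range apart from those of wild type and Cre control libraries. In this comparison the allele and whatever separates the ranges cannot be told apart. Ccna2 (0.74, SE 0.26, adjusted p 0.671), Mcm2 (-0.44, SE 0.198, 0.682) and Ccnd2 (-0.50, SE 0.236, 0.691) had the smallest p in edgeR there. Without wild type female replicate 1, 4 were called (7.17% of all genes), Ccna2 at 0.89, Ccnd2 at -0.71, Mcm2 at -0.61 and Rrm1 at -0.57.

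Between the sexes, averaged over genotype, edgeR called 10 of 40 members (25%), 3 higher and 7 lower in females, where 21.7% of all genes passed (9.99% higher and 11.7% lower), so the share of members was near the background. DESeq2 also called 10. The calls were uneven over the roles, with 4 of 9 S phase genes, 4 of 10 G1 genes, 1 of 4 inhibitors and 1 of 17 mitosis genes. The S phase calls were all lower in females. They were Mcm6 (-0.53, SE 0.154, edgeR adjusted p 0.0152), Rrm1 (-0.54, SE 0.173, 0.0257), Mcm4 (-0.42, SE 0.136, 0.0265) and Pcna (-0.34, SE 0.12, 0.0453). The S phase median was -0.34, against -0.06 over all genes, and 8 of 9 genes were negative. Wild type mice went the other way. There 8 of 9 were higher in females, with a median of 0.36 against 0.02 over all genes, and none was called. Without wild type female replicate 1 that median was 0.52, with 7 of 9 higher. The S phase median was -0.33 in Cre control, -0.42 in Egr1cKO control and -0.84 in Egr1cKO mice. The calls of Plk1, Cdkn1c, Ccnd1, Ccnd2 and Mcm6 held in 24 of 24 fits that each left out 1 library. Rrm1 kept its call in 23 and lost it without Egr1cKO male replicate 2 (adjusted p 0.0527). Mcm4 kept its call in 21 and lost it without wild type male replicate 3, Egr1cKO male replicate 1 or Cre control female replicate 1 (adjusted p of at most 0.0619). Ccnd3, Pcna and Cdk4 passed narrowly and kept their calls in 11, 9 and 7 of 24 fits, with adjusted p of at most 0.0879, 0.104 and 0.0923. Leaving out wild type female replicate 1, 9 members were called (18.8% of all genes). Summed endothelial markers were at 157 to 282 CPM in male and 122 to 187 CPM in female libraries, with 3 of 6 called lower in females. Posterior lobe marker sums were higher in females in all 4 genotypes without overlap, with 6 of 6 markers called, and the part of these cells in the S phase difference was not tested. The mitochondrial share was 2.08% to 4.80% in male and 2.14% to 10.4% in female libraries. When the fit included it, 1 member was called, Mcm7 at 0.63 higher in females, and S phase genes had a median of -0.01. With the number of genes detected in its place Mcm7 was again the 1 call, at 0.53.

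Within single genotypes the sex comparison called few members. In wild type mice edgeR called 0 of 40 (0.283% of all genes), 4 had an unadjusted p under 0.05 (10%, against 7.03% of all genes), and DESeq2 called 0. The smallest p there were those of Cdk6 (0.78, SE 0.255, edgeR adjusted p 0.326), E2f1 (1.08, SE 0.444, 0.573) and Mcm7 (0.56, SE 0.234, 0.589). Without wild type female replicate 1, Rrm1 (0.93) and Mcm7 (0.78) were called higher in females (4.41% of all genes). In Cre control mice edgeR called 0 of 40 (3.61% of all genes), 8 had an unadjusted p under 0.05 (20%, against 23.6% of all genes), and DESeq2 called 6. Cdkn1c (1.16, SE 0.335, edgeR adjusted p 0.0509), Mcm4 (-0.94, SE 0.274, 0.051) and Ccnd2 (-1.05, SE 0.337, 0.0725) came closest. In Egr1cKO controls edgeR called 0 (0.451% of all genes), 3 had an unadjusted p under 0.05 (7.5%, against 13.8% of all genes), and DESeq2 called 0. The smallest p were those of Mcm6 (-0.83, SE 0.311), Plk1 (1.63, SE 0.764) and Mcm2 (-0.60, SE 0.281), with edgeR adjusted p of 0.229, 0.338 and 0.339. In mice labelled Egr1cKO, Ccnd1 and Mcm6 (-0.95, SE 0.309, edgeR adjusted p 0.0433) were called, 5% of members against 13.1% of all genes. DESeq2 called 7, and the share of all genes it called is not given. Ccnd1 kept its edgeR call without Egr1cKO male replicate 3 and lost it without any other of the 6 libraries. Mcm6 lost it without Egr1cKO male replicates 1 or 2 or Egr1cKO female replicates 2 or 3. After these 2, Ccnd2 had the next smallest adjusted p (-1.0, SE 0.337, edgeR adjusted p 0.0508).

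Of 69 other cell cycle genes, all tested, few passed in any comparison of Cre-positive with Cre-negative groups. Racgap1, a GTPase-activating protein of the cleavage furrow, was lower with Cre. It was at 65.3, 43.6 and 58.7 CPM in wild type males and 26.3, 36.3 and 34.6 CPM in Cre control males, and at 64.4, 41.2 and 51.7 CPM in male controls and 38.3, 36.8 and 31.6 CPM in Egr1cKO males. In females it was at 38.5, 47.3 and 35 CPM in wild type and 18.7, 15.5 and 24.3 CPM in Cre control, and at 33.7, 44.6 and 38.6 CPM in controls and 21.8, 19.9 and 13.3 CPM in Egr1cKO libraries. All 4 pairs separated without overlap. The averaged Cre effect on Racgap1 was -0.87 (SE 0.111, edgeR adjusted p 1.17e-05), and the call held in 24 of 24 fits that left out 1 library. In single comparisons it fell by 1.04 on the log2 scale in Cre control females (edgeR adjusted p 0.0183), a call lost without wild type female replicate 2 or Cre control female replicates 1 or 2, and when only the 2 groups were fitted (adjusted p 0.327). In Egr1cKO females it fell by 1.09 (adjusted p 0.0097 by edgeR), a call lost without Egr1cKO control female replicate 2 or Egr1cKO female replicate 3. E2f7, a repressor of E2F targets, had a log2 difference of -3.77 there (adjusted p 0.0426 by edgeR), and that call held in 1 of 6 fits that left out 1 library, the one without Egr1cKO control female replicate 3. It was also lost with the mitochondrial share in the fit and when only the 2 groups were fitted. The 4 of 69 genes called for the averaged Cre effect (5.8%, against 6.89% of all genes) were Racgap1, E2f7 (-1.95), the mitotic phosphatase Cdc25b (0.51) and the stress gene Gadd45b (1.18).

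In the sex comparison averaged over genotype, 9 of the 69 were called (13%, against 21.7% of all genes), 8 higher and 1 lower in females. The growth arrest gene Gadd45g was higher by 1.40 (SE 0.195, edgeR adjusted p 4.08e-05), Tfdp1, the partner of E2F factors, by 0.60 and Cdc25b by 0.54, while Racgap1 was lower by a log2 difference of -0.65. With the mitochondrial share in the fit the first 3 were not called, at 1.01 (edgeR adjusted p 0.0565), 0.25 (0.445) and 0.44 (0.208), and Racgap1 was at -0.56 (0.0482). With the number of genes detected Gadd45g kept its call, at 0.97 (edgeR adjusted p 0.00744), as did Racgap1 at -0.57 (0.0228). Tfdp1 and Cdc25b were not called there, at 0.28 (0.289) and 0.51 (0.0805). For the sex difference in the Cre effect, 2 of 69 were called (2.9%, against 2.06% of all genes), Gadd45a and Gadd45g.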

How the data were processed

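The authors deposited raw counts of reads per gene, identified by Ensembl ID, for 24 non-stranded polyA libraries. Per the submitters' processing notes, Trim Galore 3.8.2, FastQC and STAR 2.7.9 were used with the GRCm38 build, while the counting tool and annotation are not stated there. Of 35191 identifiers, 35077 matched GENCODE M21 and 114 did not. Here, edgeR 4.0.16 in R 4.3.3 was run on the counts as deposited. filterByExpr kept 21927 genes, and libraries were scaled by TMM. One model over 8 groups, with 16 residual degrees of freedom and robust quasi-likelihood tests, gave 13 comparisons. Genes with a Benjamini-Hochberg adjusted p under 0.05 over all genes tested were called, and log2 differences used a prior count of 0.125. Standard errors were derived from the log2 difference and its F value. The scripts were tested on simulated data.

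The 40 members and all gene and marker lists were chosen with earlier results of these data known. Every member called in the edgeR fit of all 24 libraries without covariates is named, with values in every library for the 6 smallest adjusted p. The 3 smallest p are named where fewer than 3 were called. Mki67, Top2a, Cdk1, Pcna, Ccnd1, Ccnd2 and the inhibitors are given in every group. Of other lists, up to 3 called genes each are named. Library values of Racgap1, Tfdp1, Atm and the pair of Gadd45 genes were chosen for printing after they were seen. Alternatives were DESeq2 1.42.0, its size factors, no filter, mitochondrial share or genes detected as covariates, only the 2 groups compared, and leaving out each library. Total counts of 15486069 to 26255343 per library set the precision, which for mitosis genes rests on median counts of 12 to 181. Replicate libraries differed beyond sampling noise in every group (chi-square over genes divided by its degrees of freedom at least 16.3), so none was treated as a repeat of another. Promoters are RefSeq sequences on GRCm38.p6.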

Additional observations from a re-analysis of the deposited data

Results flagged for a closer look

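The Cre effect on 2 of 69 other cell cycle genes (2.9%, against 2.06% of all genes) differed between the sexes in a test of that difference. They were the growth arrest and stress genes Gadd45a and Gadd45g. Gadd45a was at 22.2, 26.4 and 15.8 CPM in wild type males and 13.8, 8.81 and 10.5 CPM in Cre control males, and at 26.1, 18.8 and 24.8 CPM in male Egr1cKO controls and 10.3, 15 and 20 CPM in Egr1cKO males. In females it was at 17.9, 14.7 and 9.43 CPM in wild type and 25.8, 23.4 and 29.7 CPM in Cre control, and at 21.7, 17 and 9.28 CPM in controls and 22.3, 25.7 and 41.4 CPM in Egr1cKO libraries. Cre-positive females lay above their controls in both pairs, and Cre control males lay below wild type males. The female minus male difference in the Cre effect, averaged over both Egr1 alleles, was 1.69 (SE 0.311, edgeR adjusted p 0.0131).

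Gadd45g was at 48.1, 39.3 and 22.7 CPM in wild type females and 92.9, 84.9 and 103 CPM in Cre control females, and at 39, 28 and 24.8 CPM in female Egr1cKO controls and 47.6, 74.5 and 103 CPM in Egr1cKO females. Its male means were 23.6 ± 7.86 CPM in wild type, 16.6 ± 12.5 in Cre control, 28.3 ± 6.98 in Egr1cKO control and 14.9 ± 2.45 in Egr1cKO libraries (SD, n = 3). Both female pairs separated without overlap. The difference between the sexes was 2.04 (SE 0.387, edgeR adjusted p 0.0141). Both calls held in 24 of 24 fits that left out 1 library. With the mitochondrial share in the fit the values were 1.33 for Gadd45a and 1.68 for Gadd45g, and neither was called. With the number of genes detected they were 1.30 (edgeR adjusted p 0.0921) and 1.57 (0.0957), and again neither was called.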

How the results depend on the processing

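The count of the 40 members called is given for each setting that moved it by over 1.5 times, and other settings kept it within that range. The cause of each move was not tested. The share of all genes called under each setting is not given beside these counts, so they are not read as results about the members. The same holds for the DESeq2 counts given above. With no filter on low counts the members called were 2 for Cre in males, 3 for Cre in females, 2 for Egr1cKO in females, 4 for the averaged Cre effect, 5 for the sex difference in the Cre effect, and 1 for Egr1cKO controls against wild type. In the sex comparisons without the filter they were 6 in Cre control, 1 in Egr1cKO control and 6 in Egr1cKO mice. DESeq2 called 1 for Cre in females, 3 for the averaged Cre effect, 2 for the sex difference in it, and between the sexes 6 in Cre control and 7 in Egr1cKO mice. DESeq2's size factors in edgeR gave 1 in each of the last 2. Fitting only the 2 groups compared gave 1 for Egr1cKO in females, and between the sexes 7 in Cre control and 7 in Egr1cKO mice. With the mitochondrial share in the fit the counts were 1 for Cre in females, 6 for Egr1cKO in females, 7 for the averaged Cre effect, 1 between the sexes in Egr1cKO mice and 1 averaged over genotype. With genes detected in the fit they were 1, 1, 5, 0 and 1 in the same order. Including the mitochondrial share turned the sign of several sex differences. Averaged over genotype these were Mcm6 (0.00 to 2 decimals), Ccnd2 (0.08), Rrm1 (0.08), Cdkn1c (-0.09), Cdk4 (-0.01), Ccnd3 (0.12), Rbl1 (-0.10) and Mcm10 (-0.41), and in Egr1cKO mice Mcm6 (0.11), Rbl1 (-0.18) and Atm (0.47). Genes detected turned Mcm10 (-0.03) averaged over genotype, and Rbl1 (-0.06) and Atm (0.20) in Egr1cKO mice. Leaving out 1 library at a time gave 0 to 6 members for Cre in females, 0 to 1 for Egr1cKO in females and 0 to 3 for the averaged Cre effect. It gave 0 to 7 for the sex difference in the Cre effect and 0 to 4 for Egr1cKO controls against wild type. Between the sexes it gave 0 to 2 in wild type, 0 to 1 in Cre control, 0 to 5 in Egr1cKO mice and 6 to 10 averaged over genotype, the 6 without Egr1cKO male replicate 1. The highest counts for Cre in females, the sex difference in the Cre effect and Egr1cKO controls against wild type came without wild type female replicate 1, and 3 for the averaged Cre effect without wild type female replicates 2 or 3. The 5 in Egr1cKO mice came without Egr1cKO male replicate 3, the 1 in Cre control without Cre control male replicate 1, and the 1 for Egr1cKO in females without Egr1cKO female replicate 1. The averaged Cre effect had 0 without Cre control male replicate 1, Cre control female replicate 2, wild type male replicate 3, Egr1cKO control male replicates 1 or 3, or Egr1cKO male replicate 3, and the sex comparison in Egr1cKO mice 0 without male replicates 1 or 2 or female replicates 2 or 3. For Cre and Egr1cKO in males, the sex comparison in Egr1cKO control and the test of Egr1cKO beyond Cre, leaving out 1 library gave 0. Of the values of single named genes under an alternative, 763 kept direction and call, 193 kept direction and lost the call, and 14 turned. Low counts limit the mitosis genes most. No paired analysis was possible because the bracketed numbers in the titles differ for every library and groups share none of them.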

Other observations

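In mice labelled Egr1cKO, 11 of 69 other cell cycle genes differed between the sexes (15.9%, against 13.1% of all genes), 8 higher and 3 lower in females. Among partners of the retinoblastoma family and E2F, Tfdp1 was at 57.7, 46.9 and 71.9 CPM in males and 102, 128 and 156 CPM in females, a log2 difference of 1.13 (SE 0.245, edgeR adjusted p 0.00565). E2f3, an activating E2F factor, was higher in females by 1.03 and Mybl2, which encodes B-Myb, by 1.2. The DNA damage kinase Atm was lower in females. It was at 41.5, 31.5 and 14 CPM in males and 8.62, 7.94 and 6.45 CPM in females, a difference of -1.92 (SE 0.564, edgeR adjusted p 0.0324). The groups did not overlap for Tfdp1 or Atm, and the mitochondrial share, 2.76% to 3.79% in these males and 8.73% to 10.4% in these females, did not overlap either. With that share in the fit none of these named genes was called. The differences were 0.47 for Tfdp1, 0.55 for E2f3, 0.66 for Mybl2 and 0.47 for Atm, whose sign turned. They were 1.60 for Gadd45g, -0.80 for Racgap1 and 0.82 for Cdc25b. Of the 6 fits that left out 1 library, the call held in 6 for Tfdp1 and Gadd45g and 4 for Racgap1 and Cdc25b. It held in 3 for E2f3, 1 for Mybl2 and 1 for Atm.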
